A study of Mus musculus with 7 samples.

Results

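Heat shock proteins and the other molecular chaperones and cochaperones were examined in satellite cells, the stem cells of skeletal muscle, taken from old mice and from mice after death. The members were 84 genes of 13287 named genes on the array, chosen by gene symbol: the HSP70, HSP90, HSP110 and small heat shock protein genes, Hspd1 and Hspe1, the Dnaja, Dnajb and Dnajc genes, Bag1 to Bag6, the heat shock factor (Hsf) genes, the subunits of the cytosolic chaperonin (Cct2 to Cct8 and Tcp1), and the cochaperones Ahsa1 and Stip1. The symbols were matched without use of measured values, but the members were chosen with earlier results of these data known. Of these, 76 had a mean log2 level of at least 5.12 over the arrays and were tested among 9944 genes. The 8 left out had means from 3.04 to 4.83 and were Cct6b, Dnajb3, Dnajb7, Dnajb13, Dnajc5g, Dnajc28, Hsf5 and Hsf2bp. Hspa1b was named only by a probe set shared with Hspa1a, and no probe set in the deposited values named Hsf1 or Hsp90ab1. These genes were not analysed here. A pair of genes carry a family symbol without being classical members of the family, Hspb11, which encodes an intraflagellar transport protein, and Hsf2bp, which encodes a protein that binds Hsf2.

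Satellite cells were sorted on GFP from Tg:Pax7-nGFP mice (TgPax7nGFP in the labels), in which the Pax7 promoter drives a nuclear GFP, and their amplified RNA was hybridised to 7 GeneChip Mouse Gene 1.0 ST arrays. There were 2 arrays of quiescent cells from mice of 24 to 26 months (old), 2 of cells isolated 2 days post mortem (D2PM) and 3 of cells isolated 4 days post mortem (D4PM). By the methods, post-mortem cells came from mice aged 8 to 12 weeks, so that time after death and age cannot be told apart in any comparison with old. All mice carried the same transgene, and no array of cells from living young mice was analysed here. The age of the old mice is taken from the labels and the methods. The title of the series instead names young adult mice and its design text an age of 24 to 26 weeks, and by those the living mice would be adult rather than aged in all comparisons with old. The sources do not say whether different mice lie behind the arrays of a group, and p-values then measure only the spread between these arrays.

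Chaperones bind unfolded or partly folded proteins and release them for folding, transfer to another chaperone, or degradation. HSP70 proteins work in cycles of ATP hydrolysis that J-domain (DNAJ) proteins start and that nucleotide exchange factors, among them the HSP110 and BAG proteins, complete, whereas HSP90 acts later and on a narrower set of clients. In the heat shock response, unfolded protein frees heat shock factor 1 to bind heat shock elements, inverted repeats of GAA and TTC, in the promoters of the inducible chaperone genes. In muscle, small heat shock proteins such as HSPB1, HSPB6 and the HSPB8 and BAG3 pair also protect the contractile apparatus of the fibre.

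The array medians lay between 6.11 and 6.19 on the log2 scale. Pax7, the transcription factor of satellite cells, was at 9.87 and 10.26 in old and between 10.17 and 10.52 post mortem, and Myf5 was at 10.99 and 11.18 in old and between 11.15 and 11.44 post mortem. Neither passed the test between post-mortem and old cells (limma, Benjamini-Hochberg adjusted p = 0.135 and 0.21). Of the 11 satellite cell markers tested, 4 were higher post mortem, Heyl (0.81), Cd34 (0.67), Spry1 (0.57) and Calcr (0.55), 1 was lower, Vcam1 (-0.73), and 6 did not pass. Markers of other cells differed between the groups. Of 17 myofibre markers tested, 13 were higher post mortem and 0 lower, with a list mean of 7.43 and 7.14 in old and of 8.06 to 8.38 post mortem. Of 17 endothelial markers, 10 were higher and 0 lower, with a list mean of 6.56 and 5.92 in old and of 6.88 to 7.41 post mortem. Of 7 tendon markers, 5 were higher and 0 lower, and of 4 Schwann cell markers 2 were higher and 0 lower. Among these, Tnmd, Kera and S100b had an old mean below the level for testing and were tested only through their post-mortem arrays. Of 8 macrophage markers 0 were higher and 1 was lower, 0 of 9 fibroadipogenic markers passed in either direction, and 0 of 5 lymphocyte markers with a probe set reached the level for testing. The part of these cells in the chaperone results was not tested. In bulk RNA, fewer cells of a type and less RNA per cell cannot be told apart.

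Post-mortem cells had higher array levels of Hspa1a, Dnajb1, Dnaja4, Hspb1 and Hsph1 and of both genes of the mitochondrial chaperonin than cells of old mice. Most chaperones of the endoplasmic reticulum, the constitutive Hspa8 and most subunits of the cytosolic chaperonin did not pass the test. Levels are of amplified RNA normalised between arrays, so they are relative to other RNA and do not give amounts per cell. With both days averaged and set against old, 27 of the 76 members tested were higher, 9 were lower and 40 did not pass (limma, Benjamini-Hochberg adjusted p under 0.05 over all genes tested). Of all genes tested, 29.0% passed, 14.4% higher and 14.7% lower, against 35.5% higher and 11.8% lower among the members. The median log2 change was 0.18 over the members and 0.00 over all genes. Of the 76 members, 14 passed with a rise of at least 1 on the log2 scale and 0 with such a fall. Of all genes tested, 2.21% and 1.94% did so. Of the 76 members tested, 37 had each post-mortem array above both old arrays, beside 22.8% of all genes tested. In 12 members each post-mortem array lay below both, beside 23.2% of all genes. All 27 higher and all 9 lower members were among these, which passing the same comparison makes likely. The count of 36 fell to 15 without old replicate 2, when 8.63% of all genes passed, and to 21 without D2PM replicate 1, when 18.8% did. In each of the 7 fits that left out 1 array, 15 of the 36 passed: Hspa1a, Hspa4l, Hspb1, Hspb6, Hspb11, Hspd1, Hspe1, Hsph1, Dnaja1, Dnaja4, Dnajb1, Dnajb4, Ahsa1, Bag3 and Bag5.

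**Figure D1:**
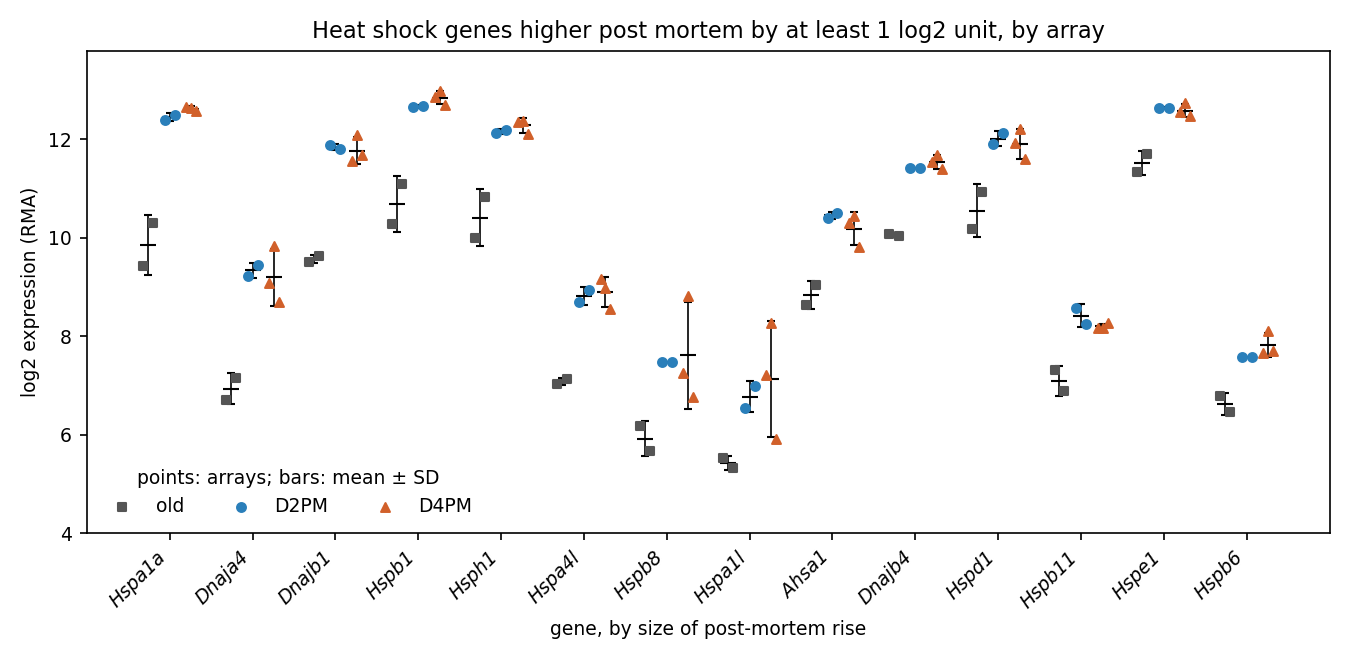
Log2 expression (RMA, y axis) of the 14 members that rose by at least 1 log2 unit post mortem (x axis, in order of the rise), with a point for each of 2 old, 2 D2PM and 3 D4PM arrays and bars for mean ± SD. The post-mortem arrays lie above the old arrays for each gene, and the old arrays, at 9.43 and 10.29, lie further apart for Hspa1a than for Dnajb4, at 10.08 and 10.03.

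The stress-inducible HSP70 gene Hspa1a had the largest rise of all members. Its log2 level was 9.43 and 10.29 on the old arrays, 12.39 and 12.50 at D2PM, and 12.66, 12.63 and 12.57 at D4PM. The lowest post-mortem array was thus 2.10 above the higher old array, and the 5 post-mortem arrays lay closer together than the 2 old arrays. Post-mortem values of Hspa1a, Hspb1, Hspe1, Hspa8 and Hsp90aa1 all lay between 12.39 and 12.98, near the top of the member values. Whether such bright values are compressed was not tested. The change was 2.68 ± 0.19 (log2, SE, 2 old and 5 post-mortem arrays), a 6.39-fold higher level (limma, adjusted p = 5.46e-06). Hspa1a and Hspa1b are near-identical copies, and a probe set assigned to both was not used, so the value may hold RNA of either gene. Hspa1l, a neighbouring HSP70 gene known from the testis, was at 5.53 and 5.32 in old, 6.54 and 6.996 at D2PM, and 7.21, 8.27 and 5.91 at D4PM. The D4PM arrays of Hspa1l spread more than the groups differed, and its change of 1.53 ± 0.44 (limma, adjusted p = 0.0227) was lost without either old array or either D2PM array.

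The remaining HSP70 genes had small changes. Hspa8, the constitutive cytosolic HSP70 that also strips clathrin from vesicles, was at 12.47 and 12.62 in old and between 12.71 and 12.83 post mortem. Each post-mortem array of Hspa8 was above both old arrays, but the change of 0.21 (95% interval -0.03 to 0.46) did not pass (limma, adjusted p = 0.177). Its 3 probe sets gave changes of 0.21 to 0.28. Hspa9, the mitochondrial HSP70 mortalin, went the other way, at 10.07 and 10.41 in old, 9.76 and 9.85 at D2PM, and 9.74, 9.61 and 9.47 at D4PM. Its fall by 0.54 on the log2 scale passed (limma, adjusted p = 0.0112), but not without old replicate 2 or D2PM replicate 1. The HSP70 genes Hspa2 and Hspa12b had changes of 0.46 and 0.35 with adjusted p just past the threshold (limma, 0.0503 and 0.051), and passed in D4PM against old. Hspa12a, Hspa13 and Hspa14 did not pass (changes from -0.12 to 0.27).

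In the HSP110 family, which recharges HSP70 with ATP, 2 of 3 genes rose. Hsph1 (HSP105) was at 9.997 and 10.82 in old, 12.13 and 12.19 at D2PM, and 12.36, 12.38 and 12.11 at D4PM. Hspa4l was at 7.02 and 7.13 in old, 8.69 and 8.94 at D2PM, and 9.16, 8.99 and 8.55 at D4PM. In both genes the 2 days overlapped and stood clear of old, with changes of 1.81 ± 0.19 (3.51-fold) and 1.78 ± 0.16 (3.44-fold). Their limma adjusted p were 8.97e-05 and 3.48e-05. Hspa4, the constitutive gene of the family, was at 8.95 and 9.22 in old and between 8.53 and 9.005 post mortem, a change of -0.25 that did not pass (limma, adjusted p = 0.194).

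Of the HSP90 genes, Hsp90aa1, the inducible cytosolic form, rose by 0.43 (1.34-fold, limma adjusted p = 0.0173), from 12.22 and 12.41 in old to between 12.69 and 12.86 post mortem. Its 3 probe sets gave changes of 0.43 to 0.56. The rise was lost without either old array or either D2PM array. The HSP90 cochaperone Ahsa1, which speeds up the ATPase of HSP90, changed more: its level was 8.64 and 9.03 in old, 10.40 and 10.51 at D2PM, and 10.31, 10.44 and 9.80 at D4PM. Its rise was 1.48 ± 0.18 (2.80-fold, limma adjusted p = 0.000195). Stip1 (HOP), which hands clients from HSP70 to HSP90, rose by 0.69 (limma, adjusted p = 0.0151), with post-mortem levels of 9.55 to 10.24 against 8.998 and 9.44 in old, and its call was also lost without either old array or either D2PM array.

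Among the J-domain genes the DNAJA and DNAJB groups each held a few large rises beside members that did not pass. Dnajb1 (HSP40), the main partner of inducible HSP70, was at 9.51 and 9.62 in old, 11.88 and 11.81 at D2PM, and 11.55, 12.08 and 11.67 at D4PM. Its change of 2.24 ± 0.15 (4.72-fold) had the lowest adjusted p of the members (limma, 3.69e-06). Dnaja4 was at 6.71 and 7.15 in old, 9.22 and 9.45 at D2PM, and 9.08, 9.82 and 8.69 at D4PM, a change of 2.34 ± 0.25 (5.05-fold). Dnajb4 was at 10.08 and 10.03 in old, 11.41 on both D2PM arrays, and 11.54, 11.68 and 11.40 at D4PM, a change of 1.42 ± 0.12. Dnaja1 rose by 0.93 ± 0.13 by its brightest probe set and by 1.62 by its other probe set. The J-domain genes that fell in these 2 groups were Dnaja2 (-0.41) and Dnajb5 (-0.45), and both calls were lost without either old array and without D2PM replicate 1. The 7 other tested DNAJA and DNAJB genes, Dnaja3, Dnajb2, Dnajb6, Dnajb9, Dnajb11, Dnajb12 and Dnajb14, had changes from -0.12 to 0.25 that did not pass.

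The 21 tested DNAJC genes, which share only the J domain and serve many compartments, were divided: 6 were higher, 5 lower and 10 did not pass, with a median of -0.07. The shares were 28.6% higher and 23.8% lower, beside 14.4% and 14.7% of all genes tested. Dnajc15, an inner mitochondrial membrane protein, was at 7.497 and 7.25 in old, 8.62 and 8.41 at D2PM, and 7.83, 8.37 and 7.68 at D4PM. Its rise of 0.86 was the largest of the group. Dnajc19, of the mitochondrial import motor, rose by 0.65. The others higher were Dnajc9 (0.48), Dnajc12 (0.46), Dnajc18 (0.45) and Dnajc24 (0.36). The genes lower were Dnajc21 (-0.70) and Dnajc2 (-0.62), both tied to the ribosome, Dnajc3 (-0.50), an inhibitor of eIF2alpha kinases in the endoplasmic reticulum, Dnajc11 (-0.47), of the mitochondrial cristae complex, and Dnajc27 (-0.39). Each of these 11 calls was lost in at least 1 fit that left out an array, and all 11 without old replicate 2.

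**Figure D2:**
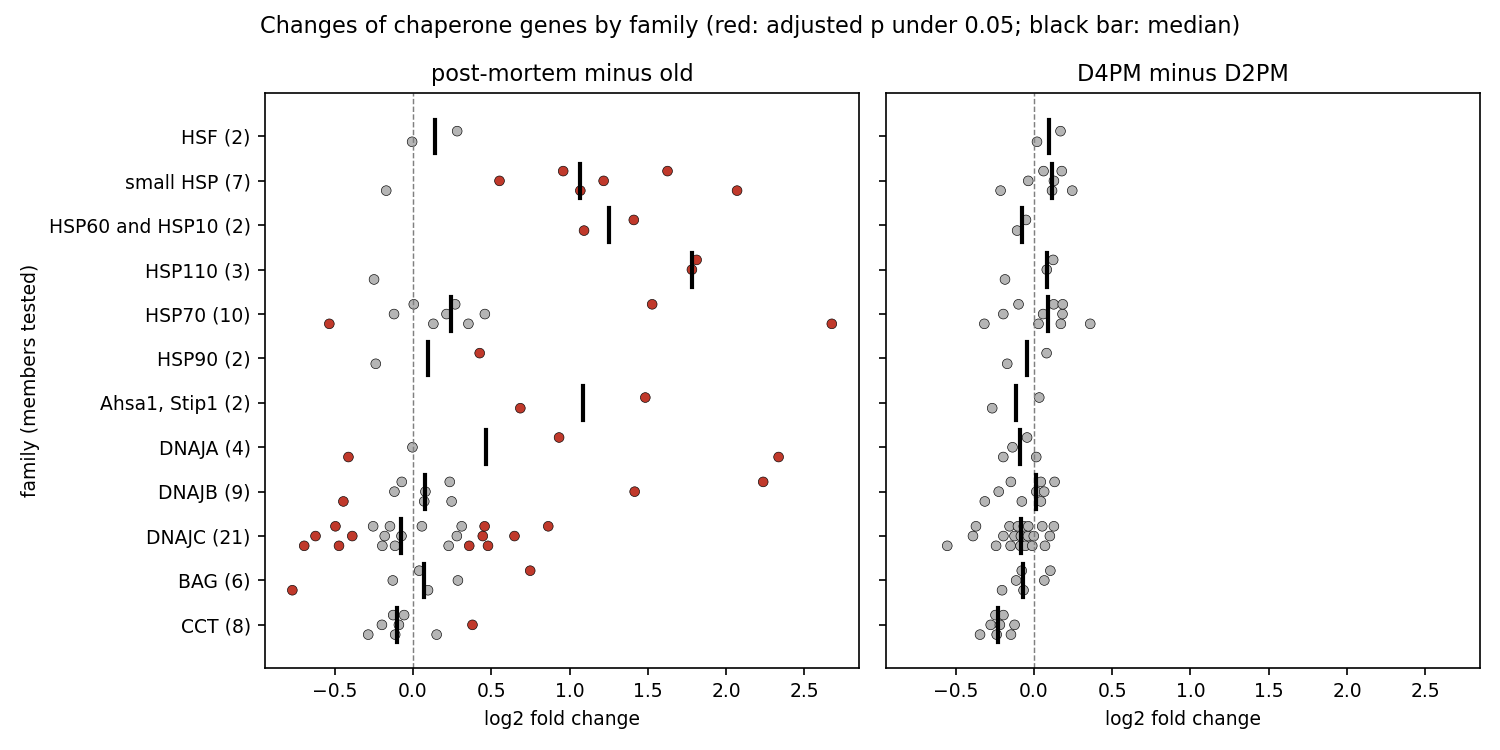
Log2 fold change (x axis) of each of the 76 tested members by family (y axis, number tested in brackets), for post-mortem against old cells on the left and D4PM against D2PM on the right. Red points passed at an adjusted p under 0.05 (limma) and black bars are family medians, which reach 1.78 for HSP110, 1.25 for HSP60 and HSP10 and 1.07 for the small HSP genes on the left, while 0 points passed on the right.

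Of the 7 small heat shock protein genes tested, 6 rose and 0 fell, with a median change of 1.07, and without Hspb11 it was 5 of 6, with a median of 1.01. Over all genes tested, 14.4% rose and 14.7% fell. Hspb1 (HSP25 in the mouse), a widely expressed and heat-inducible member, was at 10.28 and 11.09 in old, 12.65 and 12.69 at D2PM, and 12.86, 12.98 and 12.70 at D4PM. Its rise was 2.07 ± 0.19 (limma, adjusted p = 3.33e-05), and its second probe set gave 2.18. Hspb8, the partner of BAG3 in chaperone-assisted autophagy, was at 6.17 and 5.67 in old, 7.48 on both D2PM arrays, and 7.24, 8.82 and 6.76 at D4PM, so that D4PM replicate 2 stood apart from the other arrays. Its rise of 1.63 ± 0.41 (limma, adjusted p = 0.0115) was lost without either old array or either D2PM array. Hspb6 (HSP20) rose by 1.07 ± 0.15, from 6.79 and 6.47 in old to between 7.57 and 8.10 post mortem. Hspb2, a muscle-restricted gene, rose by 0.96 ± 0.17, and Hspb7, of heart and skeletal muscle, rose by 0.55 ± 0.15. Both calls were lost without old replicate 2, and that of Hspb7 also without D2PM replicate 1. The mean of Hspb7 in old was 4.96, below the level for testing, so that it was tested only through its post-mortem arrays. Hspb11 rose by 1.22 ± 0.14. Hspb9, a testis gene, was dim on all arrays (5.14 to 5.44) and did not pass.

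**Figure D3:**
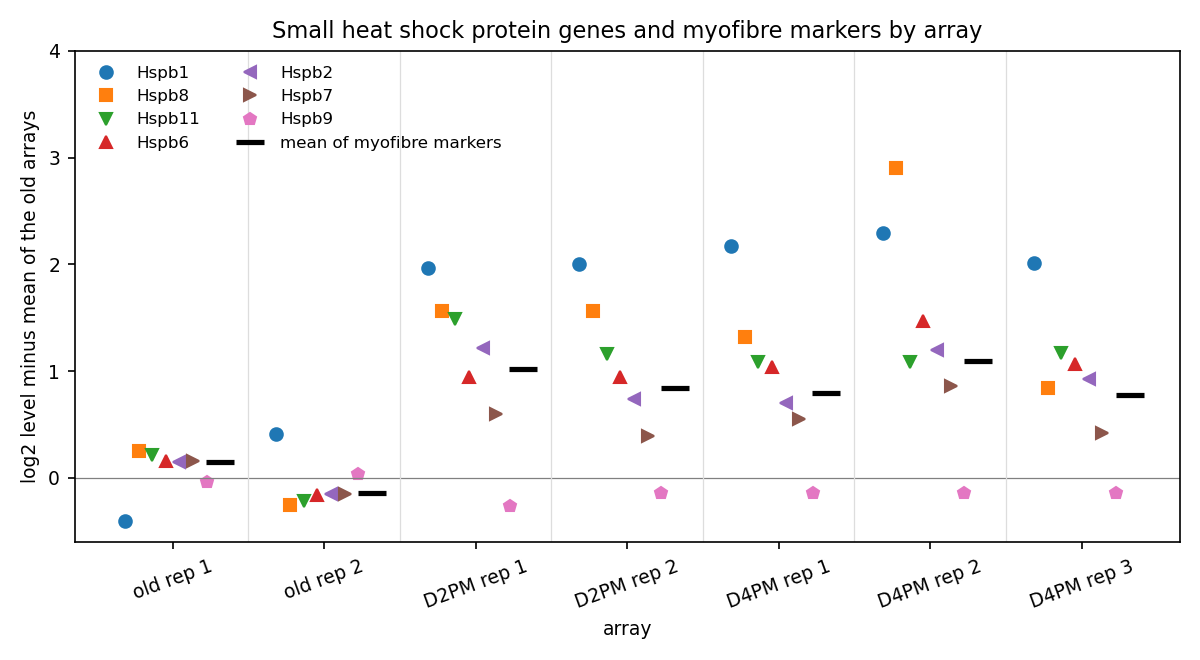
Log2 level of 7 small heat shock protein genes on each array (x axis) minus the mean of the 2 old arrays (y axis), with the mean of 17 myofibre markers as a black bar. Hspb9 apart, the genes and the marker mean are higher on the 5 post-mortem arrays than on both old arrays, and Hspb8 is highest on D4PM replicate 2 at a level of 8.82.

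Several of these genes are muscle genes, and the myofibre markers lay higher post mortem as given above. Acta1, the skeletal actin of the fibre, rose by 1.88 (limma, adjusted p = 1.36e-05), and Ckm, the muscle creatine kinase, rose by 1.55. Of the 5 post-mortem arrays, the myofibre mean was highest on D4PM replicate 2 (8.38). It was lowest on D4PM replicate 3 (8.06), close to D4PM replicate 1 (8.08). Among all 27 higher members, of any family, D4PM replicate 2 was the highest of these arrays in 16 and D4PM replicate 3 the lowest in 14. The part of fibre RNA in the rise of the small heat shock protein genes was not tested.

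Of the 6 BAG genes, nucleotide exchange factors of HSP70, 1 was higher and 1 lower. These shares of 16.7% each lie near the 14.4% and 14.7% of all genes tested. Bag3, which is induced with HSP70 and directs HSPB8 clients to autophagy, was at 11.51 and 11.49 in old, 12.12 and 12.27 at D2PM, and 12.26, 12.44 and 12.20 at D4PM. Its rise was 0.75 ± 0.12 (1.68-fold, limma adjusted p = 0.000993). Bag5 was at 9.16 and 9.22 in old, 8.47 and 8.30 at D2PM, and 8.44, 8.32 and 8.59 at D4PM. It fell by 0.77 (1.71-fold lower, limma adjusted p = 0.000973), the largest fall of the members and the only one of the 9 that passed in every fit without 1 array. Bag1, Bag2, Bag4 and Bag6 had changes from -0.13 to 0.29 that did not pass.

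The chaperones of mitochondria did not move as a block. Hspd1 (HSP60) and Hspe1 (HSP10), the 2 parts of the mitochondrial chaperonin, both rose. Hspd1 was at 10.17 and 10.93 in old, 11.91 and 12.12 at D2PM, and 11.93, 12.20 and 11.60 at D4PM, a rise of 1.41 ± 0.20 (limma, adjusted p = 0.000651). Hspe1 was at 11.34 and 11.69 in old, 12.63 and 12.64 at D2PM, and 12.56, 12.73 and 12.46 at D4PM, a rise of 1.09 ± 0.13 (limma, adjusted p = 0.000223). Both genes had a second probe set that gave 1.31 and 1.23. Of 8 mitochondrial members grouped after their values were seen, 4 were higher (Hspd1, Hspe1, Dnajc15 and Dnajc19), 2 were lower (Hspa9 and Dnajc11) and 2 did not pass (Dnaja3 and Dnajc30). Of 12 other genes of mitochondrial folding and proteolysis, 1 was higher, Hscb, the J-domain protein of iron-sulphur cluster assembly (0.84), and 0 were lower. Over all genes tested, 14.4% were higher and 14.7% lower. Clpp, Lonp1 and Trap1 were among the 11 that did not pass, with changes of -0.14, -0.20 and -0.20.

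Most chaperones of the endoplasmic reticulum did not pass, like 7057 of the 9944 genes tested, with exceptions in both directions. Hspa5 (BiP), the HSP70 of the lumen and a standard marker of the unfolded protein response, was at 11.68 and 11.93 in old, 11.88 and 11.84 at D2PM, and 11.81, 11.66 and 11.81 at D4PM. The post-mortem and old arrays overlapped, and the change between them was 0.00 (95% interval -0.26 to 0.27, limma adjusted p = 0.981). Hsp90b1 (GRP94) had a change of -0.24 that did not pass (limma, adjusted p = 0.201). Of 7 lumenal members grouped after their values were seen, 0 were higher and 1 was lower (Dnajc3), with a median of -0.12. Of 15 other genes of folding in the reticulum, 2 were higher (13.3%), 1 was lower (6.67%) and 12 did not pass, with a median of -0.01. Neither share exceeds the 14.4% higher and 14.7% lower of all genes tested. Those higher were Serpinh1 (HSP47), a collagen chaperone (1.10), and Selenos (0.53), and the gene lower was Edem1, which sorts misfolded glycoproteins for degradation (-1.11).

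The cytosolic chaperonin, a ring of 8 different subunits that folds actin and tubulin, changed little. Cct4 was the subunit of 8 tested that passed (0.38, limma adjusted p = 0.0435), and its call held in 1 of the 7 fits without 1 array. The other 7 subunits had changes from -0.29 to 0.15, and Tcp1, its founding subunit, had -0.09 (limma, adjusted p = 0.596). Of 8 genes of prefoldin and chaperonin assembly, which deliver clients to the ring, 2 were higher, Pfdn5 (0.63) and Pfdn1 (0.57), and 0 were lower.

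Genes outside the symbol rule that heat shock factor 1 is known to drive were mostly higher. Of 11 tested, 8 rose and 0 fell, with a median of 0.96. Of all genes tested, 14.4% were higher and 14.7% lower. Like the other gene lists, it was chosen with earlier results of these data known and is not independent of them. Chordc1, which binds HSP90, rose by 1.76, Cacybp by 1.67, P4ha1 by 1.20, and Cryab, a small heat shock protein of muscle and lens, by 0.87. Serpinh1 is also a gene of this list. Of the heat shock factors, Hsf2 was at 6.38 and 6.84 in old and between 6.86 and 6.99 post mortem, a change of 0.28 that did not pass (limma, adjusted p = 0.146), and Hsf4 had a change of -0.01. Of 18 cochaperones outside the rule, 4 were higher, 1 was lower and 13 did not pass. The group included Chordc1, Cacybp and Fkbp4 (0.96), which the list of heat shock factor targets also holds, and St13 (0.57), and the gene lower was Tomm70a (-0.78), the receptor for HSP70 and HSP90 clients on mitochondria. Immediate early genes, which dissociation of tissue is known to induce, were also higher: 13 of 20 rose and 1 fell, with list means of 10.56 and 10.16 in old and 10.85 to 11.24 post mortem. The part of the isolation procedure in the chaperone results was not tested.

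Promoter letters were compared with the changes because the heat shock factor binding sequence is known. RefSeq promoter windows (GRCm38.p6, from 250 bases before to 50 after each annotated start) matched 70 of the 84 members. Each window was searched for GAANNTTC and TTCNNGAA, the pair of inverted repeats that form the core of a heat shock element, each of which reads the same on both strands. Of all 27025 genes with a window, 4587 held at least 1 match. Among members it was 11 of 22 that rose, 1 of 6 that fell and 5 of 34 that did not pass (14.7%). Of the 14 that rose by at least 1, it was 9 (64.3%). Among all tested genes the share was 15.7% of those that rose and 13.5% of those that did not pass. The median change was 1.07 over the 17 tested members with a match and 0.10 over the 45 without. A longer form, with 3 alternating GAA and TTC units set 2 bases apart, was searched on both strands and overlaps the short motifs. It occurred in 0.662% of all genes and in 4 members with a window, Hspd1, Hspe1, Hsph1 and Dnajb6. A match describes letters and is not a binding site by itself.

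**Figure D4:**
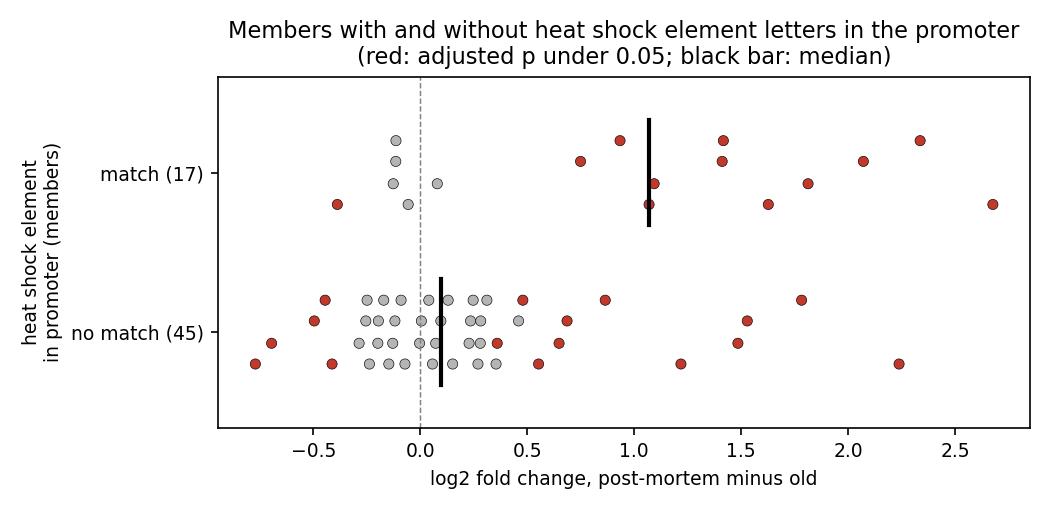
Log2 fold change in post-mortem against old cells (x axis) of the tested members with a promoter window, by whether the window held GAANNTTC or TTCNNGAA (17 members) or not (45 members). Red points passed at an adjusted p under 0.05 (limma) and the black bars are the medians, 1.07 and 0.10.

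The sequences of 6 members that rose and held a match are given to show where the letters lie. Each runs 5′ to 3′ on the strand of the gene and ends at the base before the annotated start, and capitals mark the GAA and TTC of a match.
Hspa1a (chr17:34972157-34972406, minus strand): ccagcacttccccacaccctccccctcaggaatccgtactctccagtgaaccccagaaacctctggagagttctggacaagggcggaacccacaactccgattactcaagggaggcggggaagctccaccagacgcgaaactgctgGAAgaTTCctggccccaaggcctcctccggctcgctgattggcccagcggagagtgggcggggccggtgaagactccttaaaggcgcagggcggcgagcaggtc
Hspb1 (chr5:135887669-135887918, plus strand): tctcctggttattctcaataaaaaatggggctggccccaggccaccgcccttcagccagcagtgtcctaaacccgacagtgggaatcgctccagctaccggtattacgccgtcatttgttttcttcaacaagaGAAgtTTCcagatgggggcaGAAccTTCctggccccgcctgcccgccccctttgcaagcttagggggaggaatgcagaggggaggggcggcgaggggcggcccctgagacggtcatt
Hsph1 (chr5:149636337-149636586, minus strand): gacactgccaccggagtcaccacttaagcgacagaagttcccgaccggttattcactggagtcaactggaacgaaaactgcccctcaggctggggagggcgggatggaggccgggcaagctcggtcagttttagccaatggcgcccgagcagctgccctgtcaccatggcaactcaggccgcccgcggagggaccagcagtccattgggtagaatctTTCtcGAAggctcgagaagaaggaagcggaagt
Hspe1 (chr1:55087933-55088147, plus strand): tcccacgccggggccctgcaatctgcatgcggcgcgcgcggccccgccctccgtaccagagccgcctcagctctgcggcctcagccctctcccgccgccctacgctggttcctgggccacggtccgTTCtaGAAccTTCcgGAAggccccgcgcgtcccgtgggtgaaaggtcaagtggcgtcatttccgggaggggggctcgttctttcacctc
Dnajb4 (chr3:152193846-152194095, minus strand): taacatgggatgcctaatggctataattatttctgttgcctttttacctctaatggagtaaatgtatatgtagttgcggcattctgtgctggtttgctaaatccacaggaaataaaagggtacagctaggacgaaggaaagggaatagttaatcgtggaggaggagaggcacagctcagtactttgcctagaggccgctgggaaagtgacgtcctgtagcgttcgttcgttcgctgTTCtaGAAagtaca
Hspb6 (chr7:30553051-30553300, plus strand): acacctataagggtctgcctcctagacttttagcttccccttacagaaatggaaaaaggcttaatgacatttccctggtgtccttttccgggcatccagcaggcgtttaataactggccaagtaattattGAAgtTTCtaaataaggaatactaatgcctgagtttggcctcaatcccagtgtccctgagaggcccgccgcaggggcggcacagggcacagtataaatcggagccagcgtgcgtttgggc
The match of Hspa1a began 104 bases before the start, those of Hspb1 at 117 and 97 bases, that of Hspb6 at 120 bases, that of Hsph1 at 33 bases and that of Dnajb4 at 14 bases. Hsph1 held 3 matches in its windows, of which 1 lies in the stretch shown. In Hspe1, 3 overlapping matches joined into the longer form, from 89 bases before the start. The start of Hspe1 and a start of Hspd1 on the other strand are 216 bases apart, so that the same letters lie in the windows of both genes, which count as 2 members above.

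A pair without a match is given for contrast, Dnajb1, which rose by 2.24, and Hspa5, which had a change of 0.00.
Dnajb1 (chr8:83607925-83608174, plus strand): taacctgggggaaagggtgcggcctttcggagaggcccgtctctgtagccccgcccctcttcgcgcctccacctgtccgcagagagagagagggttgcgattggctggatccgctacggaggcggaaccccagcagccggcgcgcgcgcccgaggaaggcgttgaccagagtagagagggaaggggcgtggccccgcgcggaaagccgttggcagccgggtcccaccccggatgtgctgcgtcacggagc
Hspa5 (chr2:34771840-34772089, plus strand): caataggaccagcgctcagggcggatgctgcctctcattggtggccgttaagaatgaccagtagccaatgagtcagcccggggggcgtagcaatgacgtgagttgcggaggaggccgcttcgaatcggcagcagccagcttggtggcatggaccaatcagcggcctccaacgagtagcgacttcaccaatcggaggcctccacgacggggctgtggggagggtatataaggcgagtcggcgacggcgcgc
The match is thus not shared by all members that rose, and Ahsa1, Hspa4l, Hspa1l and Hspb11 also rose by more than 1 with no match in the window.

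Taken by day, D2PM cells had 20 members higher and 3 lower than old. Of all genes tested 19.4% passed, 10.3% higher and 9.11% lower. D4PM cells had 26 members higher and 9 lower, beside 27.9% of all genes, 12.4% higher and 15.5% lower. By at least 1 on the log2 scale, 13 members were higher at D2PM and 14 at D4PM, beside 2.17% and 2.25% of all genes, and 0 were lower, beside 1.54% and 2.75%. These comparisons share the old arrays. Of the 27 members higher over both days together, 19 were higher on each day, 1 at D2PM alone, 5 at D4PM alone and 2 on neither day taken alone. Of the 9 lower, 3 were lower on each day and 6 at D4PM alone. Since D4PM had 3 arrays and D2PM 2, the counts do not rest on equal numbers of arrays. Hspa1a was 2.59 above old at D2PM and 2.76 at D4PM, and Dnajb1 was 2.28 and 2.20 above. The D2PM count fell to 12 without old replicate 2 or without D2PM replicate 1, and the D4PM count fell to 16 without old replicate 2.

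Between the days themselves, 0 of the 76 members passed in D4PM against D2PM, where 0.191% of all genes did (limma, adjusted p under 0.05). On simulated data with 200 of 9944 genes changed, the fit recovered 21.2% of log2 changes of 0.5 between the days. Differences of this size could thus be missed. At an unadjusted p under 0.05 there were 4 members by limma, against 7.76% of all genes, and 3 by Student's t-test. They were Dnajc15 (-0.55), Dnajc24 (-0.39), Dnajc2 (-0.37) and Hspa13 (-0.32), all with changes below 0, with limma adjusted p from 0.527 to 0.613. The changes of all members lay between -0.55 and 0.36, with a median of -0.06 against -0.03 over all genes. The arrays of the days did not overlap in 19 members, with 25.3% of all genes doing so. The 8 chaperonin subunits tested had changes below 0, from -0.34 to -0.12, with a median of -0.23, and 0 passed. Changes below 0 were also found in 46 of the 76 members and in 5625 of all 9944 genes tested. The same held for all 15 other genes of folding in the reticulum and all 8 genes of prefoldin and chaperonin assembly. For Hspa1a the difference was 0.17 (95% interval -0.28 to 0.62), for Hspb1 0.18 and for Dnajb1 -0.08.

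The 2 old arrays differed from each other in a few members. Old replicate 2 was above old replicate 1 by at least 0.5 in 4 members tested, Hspa1a (0.87), Hsph1 (0.82), Hspb1 (0.82) and Hspd1 (0.75), and in 3.16% of all genes. It was below by as much in 1 member, Hspb8 (-0.50). Dnajb1 (0.11), Hspa4l (0.11), Dnajb4 (-0.05) and Bag3 (-0.01) hardly differed between the old arrays. The 4 genes higher in replicate 2 rose by more than 1 post mortem, and each post-mortem array lay above the higher old array by at least 2.10, 1.29, 1.56 and 0.67 in these genes. Over all members tested, old replicate 2 was the higher in 50 of 76, against 51.6% of all genes. Without old replicate 2 the rise of Hspa1a was 3.11 and without old replicate 1 it was 2.24, and all 4 genes passed in either case.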

How the data were processed

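Per the labels and the methods, RNA of FACS-sorted satellite cells was extracted directly into lysis buffer, amplified with Ovation Pico V2 and hybridised to Mouse Gene 1.0 ST arrays, 2 old, 2 D2PM and 3 D4PM. The authors deposited log2 values for 18675 probe sets, background-corrected, normalised between arrays and summarised with RMA. Non-expressed and invariant probes had been removed by a threshold not given in the sources used here, so that shares of genes that passed are shares of genes that vary. RMA summaries gave the same value, rounded to 4 decimals, on 2 or more arrays for 20 of the 84 members (23.8%) and for 46.8% of all named genes. The number of arrays limits the precision, and RMA values carry no detection call.

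The brightest probe set, among the 14480 assigned to 1 gene, stood for a gene, which left out 10 probe sets that name a member together with another gene. Of the 8 members with several probe sets, all had changes of the same sign in each. Genes with a mean of at least 5.12 (the 25th percentile) entered a limma fit (version 3.58.1, R 4.3.3) of the means of old, D2PM and D4PM, with 4 contrasts, variances moderated by empirical Bayes with no trend, and Benjamini-Hochberg adjusted p under 0.05 over 9944 genes. Values after ± are standard errors of limma changes. On simulated data with 200 of 9944 genes changed, the fit recovered 29.9% of log2 changes of 0.5 and 85.1% of changes of 1 between post-mortem and old. Between the days it recovered 21.2% and 79.2%. In the data, 29.0% of genes passed against old and 0.191% between the days. The adjusted threshold depends on such shares, so the recovery in the data may differ from the simulated one. The members, families and gene lists, and the rule for naming members (changes of at least 1, up to 4 of a family by the moderated statistic, and a fixed list), were chosen with earlier results of these data known. All members that passed in post-mortem against old are named too. The groups of lumenal and mitochondrial members were made after their values were seen. Alternatives were other normalisations, filters, probe set rules, variance priors, array weights, a replicate block, Student's t-test, a minimum change, other groupings of the arrays, and each array left out in turn. Promoter windows are from a RefSeq table of GRCm38.p6, with which the array's gene names were matched.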

Additional observations from a re-analysis of the deposited data

How the results depend on the processing

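Between post-mortem and old cells 36 members passed, and 34 to 37 did after a second quantile normalisation, median centring, no filter or a stricter filter, the probe sets of a gene averaged, another variance prior, array weights, or all post-mortem arrays taken as 1 group. Student's t-test gave 22, and a minimum log2 change of 1 gave 14. For D2PM against old (23 members) the minimum change gave 13 and the t-test 0, with 22 at an unadjusted p under 0.05. For D4PM against old (35 members) the minimum change gave 14 and the t-test 0, with 35 at an unadjusted p under 0.05. The t-test uses the arrays of the groups compared alone and estimates each gene's spread separately. Leaving out 1 array gave 15 to 35 members for post-mortem against old, 12 to 27 for D2PM and 16 to 31 for D4PM, with the lowest counts without old replicate 2, and for D2PM equally without D2PM replicate 1. Between the days 0 members passed under all settings run. Of 80 values of named members that passed in a comparison, 67 passed under all settings other than the t-test, the minimum change and leaving out an array, and 41 passed without any 1 array. Of the 80 values that passed, 0 turned in sign under any setting run, whereas 36 of the 96 that did not pass did so in some setting.

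The replicate numbers of the labels did not pair the arrays: deviations of same-numbered arrays from their group means correlated by -0.08 to 0.05. With the replicate number as a block, 36, 24 and 32 members passed against old, for both days, D2PM and D4PM, and 0 between the days. RMA values of dim genes are compressed, and with 2 old arrays any array left out leaves the other to stand for the group, its spread assumed like that of the other groups.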
